A study of Mus musculus with 10 samples.

Results

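The 10 adrenal arrays of Crem knock-out (KO) and wild-type (WT) mice were set in order by their level of Ucp1, the uncoupling protein of brown fat, and split into 4 arrays rich and 6 arrays poor in it. An array was placed on the rich side where the probe paired with Ucp1 alone read above 10 on the log2 scale, so the sides were chosen by a measured level and not by a label. All 10 arrays were used, and the sides were compared over 19660 genes other than Ucp1. Whole adrenal RNA of 1 mouse was hybridised to each Affymetrix whole-transcript array, and its RMA level is given on a log2 scale, where a difference of 1 is a doubling. The 5 KO mice (Crem-/-) and the 5 WT mice had a mixed background (129Pas x C57Bl/J) and were 8 weeks old, untreated and killed at 0 h circadian time in a 12:12 h light:dark cycle. The terms KO and WT are used as labelled, and sex is not used here. Arrays are numbered within their genotype, and the labels place them in 4 batches.

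Brown fat cells burn fatty acids to make heat. Ucp1 lets protons leak back across the inner mitochondrial membrane without making ATP, so these cells carry dense mitochondria, many lipid droplets and a high capacity for fatty acid oxidation. The mouse adrenal gland is embedded in the fat beside the kidney, where brown fat cells occur. The gland itself consists of a steroid-producing cortex, driven by ACTH through cAMP, and a medulla of chromaffin cells that make catecholamines. Crem, the gene disrupted in the KO mice, encodes a modulator of transcription that acts at cAMP response elements.

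The promoters of Ucp1 and of 2 pairs of cytochrome c oxidase isoforms are shown because the isoforms of a pair differ in how far they followed Ucp1 across the arrays. Each line gives the 250 bases before the RefSeq start on GRCm38.p6, read 5′ to 3′ on the strand of the gene, and capitals mark the 3 motifs searched on both strands. The motifs were TGACG (the core of the cAMP response element), AGGTCA (the core bound by nuclear receptors) and TATAAA (the TATA box), which do not overlap one another in these windows. Ucp1 lies on the plus strand with its window at chr8:83290098-83290347, Cox7a1 on the plus strand at chr7:30183921-30184170, Cox7a2 on the minus strand at chr9:79759854-79760103, Cox8b on the minus strand at chr7:140900447-140900696 and Cox8a on the minus strand at chr19:7217617-7217866.
Ucp1: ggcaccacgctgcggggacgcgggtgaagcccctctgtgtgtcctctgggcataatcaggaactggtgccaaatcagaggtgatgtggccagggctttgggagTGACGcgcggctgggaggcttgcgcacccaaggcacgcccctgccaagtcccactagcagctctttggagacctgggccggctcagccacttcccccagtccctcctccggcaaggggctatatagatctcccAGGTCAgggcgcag
Cox7a1: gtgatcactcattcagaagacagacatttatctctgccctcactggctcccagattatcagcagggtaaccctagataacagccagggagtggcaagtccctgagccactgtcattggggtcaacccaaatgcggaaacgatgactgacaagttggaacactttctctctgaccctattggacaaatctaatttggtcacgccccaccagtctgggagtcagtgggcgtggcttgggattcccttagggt
Cox7a2: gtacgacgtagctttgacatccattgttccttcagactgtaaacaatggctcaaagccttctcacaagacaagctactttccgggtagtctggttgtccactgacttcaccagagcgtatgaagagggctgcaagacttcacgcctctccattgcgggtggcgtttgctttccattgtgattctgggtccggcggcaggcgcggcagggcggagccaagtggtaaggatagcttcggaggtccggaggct
Cox8b: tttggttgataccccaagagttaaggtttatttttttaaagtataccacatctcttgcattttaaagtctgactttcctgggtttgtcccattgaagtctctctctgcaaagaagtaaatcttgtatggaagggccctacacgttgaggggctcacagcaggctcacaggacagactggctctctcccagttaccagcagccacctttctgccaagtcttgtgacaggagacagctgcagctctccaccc
Cox8a: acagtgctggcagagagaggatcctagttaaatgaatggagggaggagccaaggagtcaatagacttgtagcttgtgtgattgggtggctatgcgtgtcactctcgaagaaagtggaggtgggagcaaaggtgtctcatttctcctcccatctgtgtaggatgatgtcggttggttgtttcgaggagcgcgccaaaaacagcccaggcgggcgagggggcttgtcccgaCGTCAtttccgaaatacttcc

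The Ucp1 window held TGACG once, its first base 147 bases before the start, and AGGTCA once, 14 bases before the start. The Cox8a window held TGACG on the opposite strand, 21 bases before the start, and the other 3 windows held none of these motifs. Over 18919 windows of 15401 measured genes, 21.3% held TGACG, 12.4% held AGGTCA and 10.6% held TATAAA. Among 62 windows of 57 of the 67 respiratory chain genes, the shares were 33.9%, 12.9% and 8.06%. Among 116 windows of the genes higher on all rich arrays, the shares were 17.2%, 20.7% and 16.4%. Only 100 of those 147 genes have a window in the RefSeq table, they were chosen from these same arrays, and the shares were not tested. A match of letters is a description and not a binding site. Elovl3 and Cidea are shown without sequence.

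On the rich side, Ucp1 read 12.64 (KO 3), 12.16 (KO 1), 11.74 (WT 1) and 10.54 (WT 3), and values of the rich arrays are given below in this order unless arrays are named. On the poor side it read 9.17 (WT 5), 8.06 (WT 2), 7.33 (KO 5), 7.29 (KO 2), 6.66 (KO 4) and 6.18 (WT 4). The array just inside the limit was WT 3 and the one just outside was WT 5, and the step between them (1.37) was the widest in the order but close to those on either side of it, 1.20 between WT 1 and WT 3 and 1.12 between WT 5 and WT 2. The sides averaged 11.77 ± 0.90 (SD, n = 4) and 7.45 ± 1.06 (SD, n = 6).

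Each side held both genotypes. The rich side comprised 2 KO and 2 WT arrays, and the poor side comprised 3 KO and 3 WT arrays. Batch 1 held 2 rich and 1 poor array, batch 2 held 1 of each, batch 3 held 1 rich and 3 poor arrays, and the 1 array of batch 4 was poor. Genotype was not balanced over batches. Batch 1 held 2 KO and 1 WT array, batch 2 held 2 KO, batch 3 held 1 KO and 3 WT, and batch 4 held 1 WT. Array medians over all probes lay between 7.17 and 7.25, and the Pearson correlation of any 2 arrays over 20777 probes lay between 0.893 and 0.992. The level of Crem itself did not separate the genotypes, with 6.84 to 7.97 on the KO arrays and 7.23 to 8.14 on the WT arrays, and the sources used here do not say whether its probe lies in the disrupted part of the gene. Some arrays also stood apart for other reasons. WT 3, KO 2 and KO 5 carried high levels of the splicing kinase Clk1 (12.02, 11.69 and 12.11), WT 4 was intermediate at 10.66, and the other 6 arrays lay between 8.28 and 9.85. On KO 1 the chromaffin genes were low and the liver genes high. Counts over all genes and of some lists are therefore also given without the Clk1-rich arrays. The levels of chromaffin and liver genes stand beside the adrenal results.

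The other 3 markers of brown fat were high on the same arrays, although only Elovl3 separated the sides. Elovl3, an elongase of very long chain fatty acids, read 10.21, 10.89, 9.04 and 7.16 on the rich arrays, against 5.00 to 5.99 on the poor arrays (median 5.64). Cidea, a lipid droplet protein of brown fat cells, read 13.36, 12.86, 11.54 and 10.44 on the same 4 arrays, against 10.47 on WT 5 and 7.30 to 8.79 on the remaining poor arrays. Cidea thus overlapped by 1 array, since WT 5 lay just above WT 3. Cox7a1, a subunit of cytochrome c oxidase typical of muscle and brown fat, read 12.43, 11.78, 10.88 and 9.49, against 9.75 on WT 5, 9.12 on WT 2, 9.05 on KO 4 and 8.33 to 8.51 on the other 3 poor arrays. The mean difference was 3.76 for Elovl3, 3.69 for Cidea and 2.29 for Cox7a1. Because the sides were cut on a level measured on these arrays, the differences between them are a description and carry no test.

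**Figure D1:**
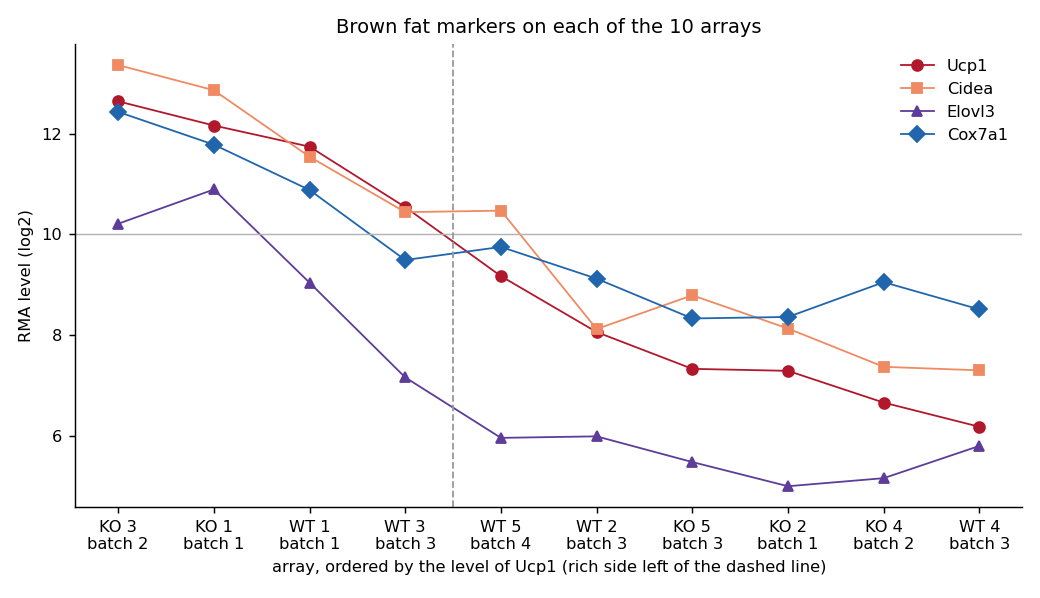
RMA level (log2, vertical axis) of Ucp1, Cidea, Elovl3 and Cox7a1 on each of the 10 arrays, which are ordered along the horizontal axis by Ucp1, with the labelled batch under each. The horizontal line marks the limit of 10 and the dashed line separates the 4 rich from the 6 poor arrays. WT 3 and WT 5, on either side of the limit, lie close together for Cidea (10.44 and 10.47) and Cox7a1 (9.49 and 9.75).

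Within the rich side, Ucp1 and the means of the fat lists did not fall in the same proportion. Relative to the mean of the poor arrays, Ucp1 was higher by 5.19 in KO 3, 4.71 in KO 1, 4.29 in WT 1 and 3.09 in WT 3. The mean of 24 genes of fat cell identity and lipid droplets was 2.46, 2.59, 0.89 and 0.73 higher on these arrays. The mean of the brown fat genes other than Ucp1 was 1.89, 1.94, 0.95 and 0.48 higher on them. WT 1 therefore came near KO 1 in Ucp1, the gene that chose the sides, but lay nearer WT 3 in both list means. On KO 1 and WT 1, Cidea was 4.50 and 3.17 higher, Elovl3 5.33 and 3.47, and Cox7a1 2.93 and 2.02. Among the poor arrays, WT 5 stood 1.72 above their mean in Ucp1 and 0.49 in fat cell identity genes, the highest of the 6 in both.

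Over all genes, 147 of 19660 (0.748%) were higher on every rich array than on every poor array, and 72 (0.366%) were lower on every rich array. The difference of means passed 1 for 348 genes (1.77%) and lay below -1 for 14 genes (0.0712%). The higher genes therefore differed by more, since 92 of the 147 differed by more than 1 while Hhex alone of the 72 differed by more than that in the other direction. The median difference of all genes was -0.014, with the 5th and 95th percentiles at -0.37 and 0.42. KO 3 and KO 1 were the highest 2 arrays for 121 of the 147 genes, and the lowest rich array was WT 3 for 78 and WT 1 for 57. The margin over the poor side was narrow, with a median gap of 0.11 between the lowest rich and the highest poor array, and the highest poor array was WT 5 for 62 of the genes. Without WT 3, KO 2 and KO 5, the arrays rich in Clk1, 886 genes (4.51%) were higher on all 3 remaining rich arrays and 831 (4.23%) were lower, where fewer arrays have to be separated. These counts rest on single arrays: without WT 3 alone there were 731 higher and 427 lower genes, without WT 1 there were 342 and 233, and without KO 4 there were 225 and 164. Without WT 5 the higher genes numbered 242, and the lower genes numbered 137 without KO 2 and 133 without KO 3. In these bulk samples, fewer cells of a type and less RNA per cell cannot be told apart.

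Of 68 genes in 4 fat lists (brown fat, white fat, fat cell identity and lipid synthesis), 27 were among the 147, beside 0.748% of all genes. The 35 lists together hold 475 genes, and 32 of these were among the 147. The other 115 of the 147 were in no list, so the lists leave most of them undescribed. The mean of the liver genes also separated the sides, and the part of liver RNA in the 147 genes, Orm1 and Hp below included, was not tested. The 20 largest differences were led by Elovl3 and by Orm1, a plasma protein also made by fat cells. Orm1 read 12.30, 12.90, 9.91 and 9.53 on the rich arrays, against 7.04 to 9.15 (median 7.84) on the poor arrays, a difference of 3.19. Gys2, a glycogen synthase, read 10.57, 10.52, 8.14 and 7.46 on these arrays, against 5.69 to 6.82 (median 6.02), a difference of 3.06. Both genes were far higher on the KO than on the WT arrays of the rich side. Glycogen phosphorylase Pygl (2.45), the amino acid transporter Slc36a2 (2.68), the growth factor Nrg4 (2.58), which brown fat cells secrete, and the plasma protein Hp (2.62) were likewise highest on KO 3 and KO 1. Others among the largest 20 that are not described further were Tmem45b (2.94), the adipogenesis gene Adig (2.89), the apolipoprotein gene Apoc1 (2.87) and the lipase gene Ces1d (2.79). The rest of the 20 were Pck1, Lep, Cidec, Retn, Aqp7, Slc27a2, Adipoq, Thrsp and Cyp2f2, whose values stand with their lists.

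Of 18 measured genes typical of brown fat, 6 were higher on all rich arrays and 0 lower, against a background of 0.748% of all genes. Besides Elovl3 these were Slc27a2 (2.53), an acyl-CoA synthetase, Pdk4 (2.13), a kinase that inhibits pyruvate dehydrogenase, Acot11 (1.73), a thioesterase, Otop1 (1.40), a proton channel, and Ebf2 (0.93), a transcription factor of brown fat precursors. Slc27a2 read 11.50 on KO 1 but 8.68 on KO 3, 7.63 on WT 1 and 6.95 on WT 3. The liver genes were also highest on KO 1, and the part of liver RNA in Slc27a2 was not tested. The median difference of the list was 1.16, beside -0.014 over all genes. Without the Clk1-rich arrays, 9 of the 18 genes were higher on all rich arrays, beside 4.51% of all genes. The list was not uniform, since several genes used to define brown fat, most of them regulators of transcription, overlapped between the sides. Prdm16 differed by 0.25, Ppargc1a by 0.48, Zic1 by 0.06, Lhx8 by 0.18 and the deiodinase gene Dio2 by 0.17. Levels of Zic1 lay between 5.91 and 6.50 over all 10 arrays, so no array stood out for it. Of 9 genes used as markers of beige fat, 0 were higher and 1 was lower, beside 0.748% and 0.366% of all genes. That gene was Tmem26, which read 7.64, 7.33, 7.82 and 7.67 on the rich arrays against 7.83 to 8.41 (median 8.24), a difference of -0.59. The median of the beige list was 0.01.

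Of 24 genes of fat cell identity and lipid droplets, all 24 had a positive difference, beside 46.5% of all genes, and 12 were higher on all rich arrays, beside 0.748% of all genes. Their median difference was 1.54, above that of the brown fat genes, but among the brighter genes alone the medians were 1.54 and 1.57, so the order of the lists turned. Adipoq, the hormone adiponectin, read 13.00, 13.34, 11.46 and 11.08 on the rich arrays, against 7.76 to 10.98 (median 9.82), and WT 3 lay just above WT 5. Cidec, which fuses lipid droplets, read 12.68, 12.92, 11.03 and 10.11, against 8.17 to 9.51 (median 9.01). Pck1, the carboxykinase that supplies glycerol phosphate for triglyceride, read 12.19, 12.77, 10.40 and 9.56, against 7.64 to 9.21 (median 8.44). These 3 genes shared 1 pattern, with KO 3 and KO 1 on top, then WT 1, WT 3 and WT 5. Pparg, the nuclear receptor that drives fat cell differentiation, differed by 2.07, the glycerol channel Aqp7 by 2.54, the triglyceride synthase Dgat2 by 2.26 and the lipase Lpl by 1.98. Plin1, the coat protein of lipid droplets, was high on every array (10.23 to 12.36) and differed by 0.88 with overlapping sides. Without the Clk1-rich arrays, 19 of the 24 genes were higher on all rich arrays, beside 4.51% of all genes.

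The mean of the white fat genes was 8.47 to 10.2 on the rich arrays and 7.88 to 8.42 on the poor arrays. Lep, the hormone leptin, read 10.38 on KO 3 and 11.26 on KO 1 but 7.05 on WT 1 and 7.24 on WT 3, against 5.67 to 6.84 (median 6.10) on the poor arrays. Retn, the hormone resistin, read 12.95, 13.24, 11.03 and 10.57, against 8.17 to 10.34 (median 9.18). Both genes were separated, but for Lep the WT arrays of the rich side lay just above the highest poor array. Lep and Retn were the 2 of 12 white fat genes higher on all rich arrays (0.748% of all genes), and the median difference was 0.89. Dpt (1.55) and Slc7a10 (1.48) overlapped, and 2 of the 12 genes had a negative difference. The median was 1.66 among KO arrays and 0.12 among WT arrays (8 of 12 above 0). Of 14 lipid synthesis genes, 7 were higher on all rich arrays, beside the same 0.748% of all genes, with a median difference of 1.24. Thrsp, a lipogenic regulator, differed by 2.45, the acetyl-CoA carboxylase genes Acaca by 2.20 and Acacb by 1.54, Pnpla3 by 2.14, the fatty acid synthase Fasn by 1.81, the desaturase Scd1 by 1.30 and the transcription factor Mlxipl by 1.19. By contrast Acly (0.17), Scd2 (-0.20) and the elongase Elovl5 (-0.42) overlapped. Without the Clk1-rich arrays, 5 of 12 white fat and 10 of 14 lipid synthesis genes were higher on all rich arrays, beside 4.51% of all genes.

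**Figure D2:**
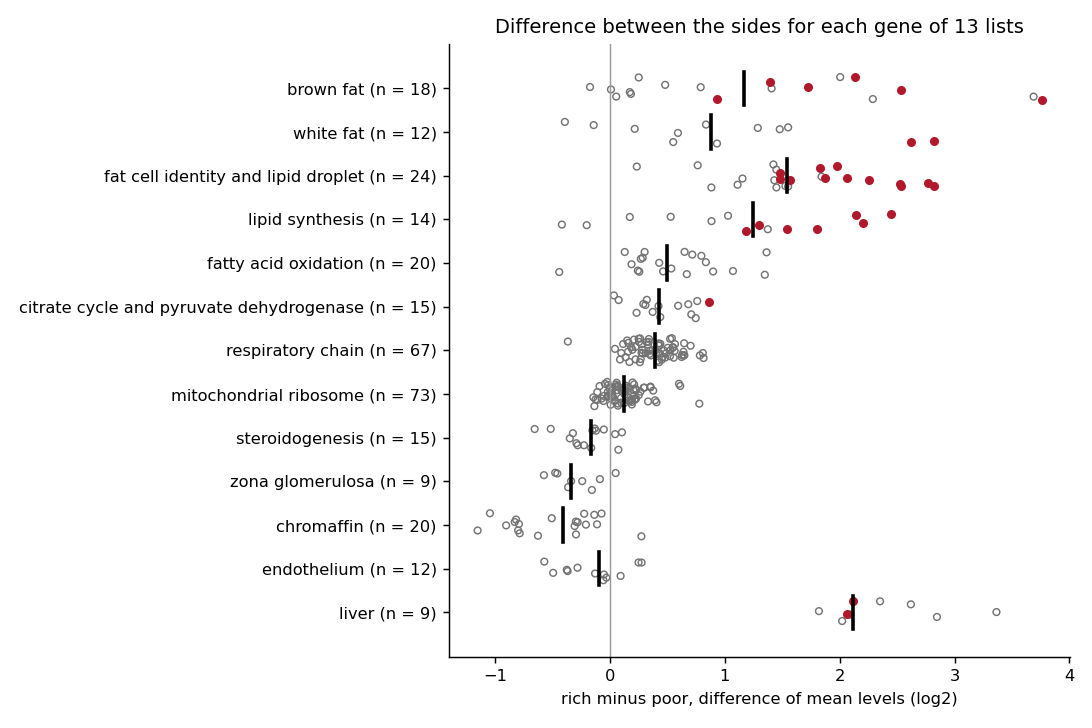
Difference of mean level, rich minus poor (log2, horizontal axis), for each measured gene of 13 lists, with the number of genes in brackets. Filled points are genes whose 4 rich and 6 poor arrays do not overlap, open points are genes that overlap, black bars are medians, and points are spread vertically only to be visible. Genes of fat cell identity have a median of 1.54, and none of the 67 respiratory chain genes is filled although 66 lie above 0.

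Mitochondrial genes differed by less, and their sides overlapped. Of 67 measured nuclear genes of the respiratory chain and ATP synthase, 66 had a positive difference, beside 46.5% of all genes, but 0 were higher and 0 lower on all rich arrays. The median difference was 0.40. The mean of these genes was 11.81, 11.54, 11.35 and 10.72 on the rich arrays, against 11.28 (WT 5), 11.22 (KO 4), 11.11 (WT 2), 10.85 (WT 4), 10.70 (KO 2) and 10.66 (KO 5) on the poor arrays. The 3 lowest arrays were thus those rich in Clk1, one of them on the rich side. Without those arrays 34 of the 67 genes were higher on all rich arrays, beside 4.51% of all genes, and the median was 0.43. The part of the Clk1-rich arrays in these values was not tested. KO 3 was the highest array for 56 of the 67 genes. Among the complexes, the median difference was 0.37 for complex I (33 genes), 0.37 for complex II (4 genes), 0.48 for complex III (9 genes), 0.52 for complex IV (9 genes) and 0.16 for ATP synthase (12 genes). Ndufb8 of complex I differed by 0.82, Uqcrh of complex III by 0.64 and Cox5a of complex IV by 0.65. Atpif1, the inhibitor of ATP synthase, was the exception at -0.36.

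Within batches the respiratory chain genes did not keep one direction. Their median difference was 0.83 within batch 1 (65 of 67 genes above 0) and 0.60 within batch 2 (65 of 67), but -0.14 within batch 3 (9 of 67), where WT 3 was the rich array. It was 0.37 with batch as a fixed block. The fat cell identity genes had medians of 2.03, 2.96 and 0.83 within batches 1, 2 and 3, and the brown fat genes had medians of 1.32, 1.73 and 0.38. Batch 2 holds 1 array on each side.

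Isoforms of the same complex IV subunit followed Ucp1 to different extents. Cox7a1 differed by 2.29 and its widely expressed counterpart Cox7a2 by 0.55. Cox8b read 13.47, 13.05, 12.27 and 11.24 on the rich arrays, against 9.78 to 11.32 (median 10.48), a difference of 2.00, and KO 4 was the poor array above WT 3. Cox8a read 12.10, 11.70, 11.24 and 10.66 on the rich arrays against 10.51 to 11.42 (median 11.04), a difference of 0.44. The muscle-type Cox6a2 differed by 0.05 and its counterpart Cox6a1 by 0.54, so in this pair the widely expressed isoform had the larger difference. Cox4i2, known as the lung-type isoform, differed by 0.09 and Cox4i1 by 0.43. Among other paired proteins, Ucp3 differed by 1.41, Cpt1a, the carnitine palmitoyltransferase of most tissues, by -0.44, the adenine nucleotide carrier Slc25a4 by -0.03, and the mitochondrial creatine kinases Ckmt1 and Ckmt2 by 0.20 and -0.07. Cpt1b, the form of muscle and brown fat, was measured only by a probe it shares with Gm44502. That probe read 11.66, 10.70, 9.47 and 8.27 on the rich arrays and 6.59 to 8.08 on the poor arrays, a difference of 2.93. The sides were separated on it, but the reading cannot be assigned to 1 gene.

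**Figure D3:**
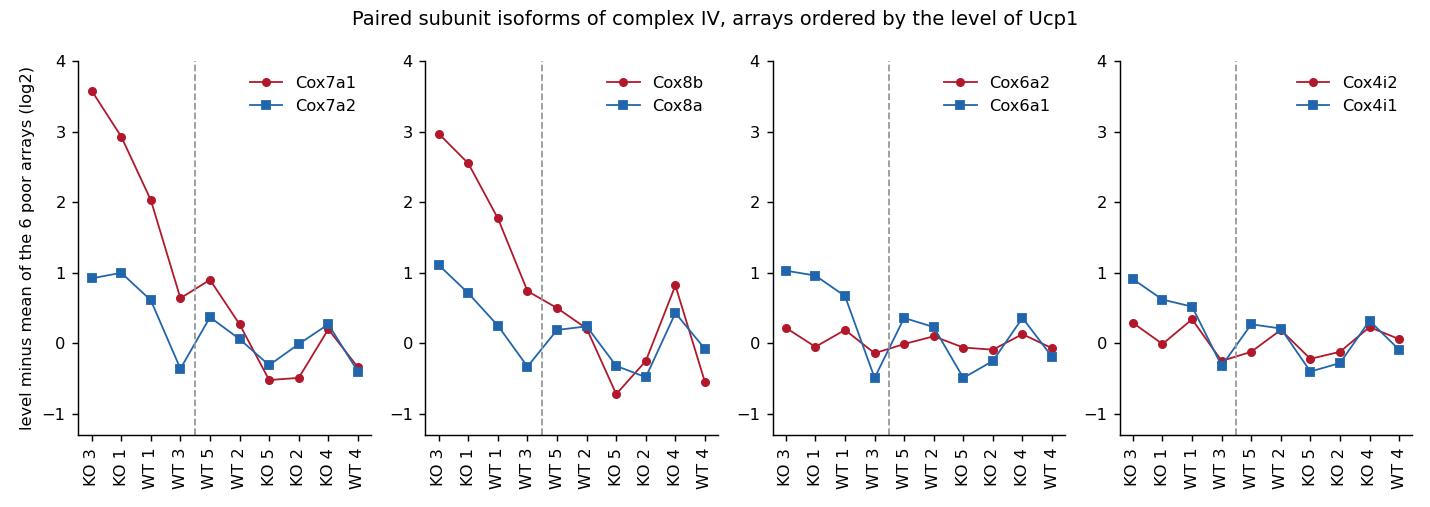
Level of 4 pairs of cytochrome c oxidase isoforms on each array (log2, vertical axis, with the mean of the 6 poor arrays subtracted), arrays ordered by Ucp1 and the dashed line separating the sides. Cox7a1 and Cox8b (left panels) climb on KO 3, KO 1 and WT 1, while Cox6a2 and Cox4i2 stay near 0 on all arrays.

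Enzymes that burn fuel showed intermediate differences. Of 20 fatty acid oxidation genes, 19 had a positive difference, beside 46.5% of all genes, and the median was 0.50. On all rich arrays 0 of them were higher and 0 lower, beside 0.748% and 0.366% of all genes. Without the Clk1-rich arrays, 9 of the 20 were higher and 1 lower, beside 4.51% and 4.23% of all genes. The carnitine acetyltransferase Crat (1.36), the peroxisomal enzyme Ehhadh (1.35), the carnitine carrier Slc25a20 (1.07) and the dehydrogenase Acadvl (0.90) differed most. For Crat, WT 3 at 10.02 lay below WT 5 at 10.27, and this order recurred in all 4 genes. Of 15 genes of the citrate cycle and pyruvate dehydrogenase, all 15 had a positive difference, beside the same 46.5% of all genes, with a median of 0.42. Dlat, a subunit of pyruvate dehydrogenase, was the 1 gene of them higher on all rich arrays (0.86), beside 0.748% of all genes. The citrate synthase Cs differed by 0.76 with overlapping sides. Factors of mitochondrial biogenesis had a median of 0.01 over 11 genes, from 0.46 for Ppargc1b to -0.40 for Tfam. The 73 mitochondrial ribosomal genes had a median of 0.13 and the 28 cytosolic ones 0.04.

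Genes of the adrenal cortex were slightly lower on the rich side without separating it. Of 15 steroidogenesis genes, 12 had a negative and 3 a positive difference, where 46.5% of all genes had a positive one, and the median was -0.16. On all rich arrays 0 of them were higher and 0 lower (background 0.748% higher and 0.366% lower). The mean of the list was 11.20, 11.21, 11.49 and 11.35 on the rich arrays, against 11.40 to 11.61 on the poor arrays. The 2 KO arrays and WT 3 lay below every poor array, and WT 1 lay within their range. Star, which carries cholesterol into mitochondria, read 13.36, 13.31, 13.76 and 14.04 on the rich arrays against 13.72 to 14.12 (median 13.95), so all arrays were high. The ACTH receptor Mc2r differed by -0.51, the lipoprotein receptor Scarb1 by -0.35 and the nuclear receptor Nr0b1 by -0.65. Zona glomerulosa genes had a median of -0.34 over 9 genes, with the aldosterone synthase Cyp11b2 at -0.48, and KO 3 was the lowest array for 6 of the 9. Their direction turned within batch 3, with medians of -0.31, -0.84 and 0.25 (7 of 9 above 0) within batches 1, 2 and 3, and it was -0.59 among KO and -0.08 among WT arrays (4 of 9 above 0).

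The 72 genes lower on all rich arrays were led by Hhex, a homeobox factor. Hhex read 9.72, 9.48, 10.82 and 10.87 on the rich arrays, against 11.05 to 11.72 (median 11.31), a difference of -1.12. The separation was narrow, since WT 3 and WT 4 differed by less than the spread within either side. The taurine transporter Slc6a6 (-0.74), the transporters Mfsd4a (-0.75) and Slc16a9 (-0.66), Tmem144 (-0.66), Gsg1l (-0.65), the protease Pcsk5 (-0.64), Myof (-0.63), the lipid flippase Atp11a (-0.63) and the actin-capping Tmod1 (-0.59) completed the largest 10. Of the 475 genes in the 35 lists, Tmem26 was the 1 among the 72, beside 0.366% of all genes.

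The chromaffin difference rested on KO 1, while the liver genes separated the sides as a list and were highest on KO 1. Of 20 chromaffin genes, 19 had a negative and 1 a positive difference, where 46.5% of all genes had a positive one. Their median was -0.41, but KO 1 was the lowest array for 19 of the 20. The list mean was 7.89 on KO 1 and 10.44 to 10.90 on the other rich arrays, against 10.07 to 10.82 on the poor arrays, and without KO 1 the median was 0.18. Pnmt, which makes adrenaline, read 7.91 on KO 1 and 11.23 to 13.11 on the other rich arrays. Of 9 liver genes, all 9 were highest on KO 1. Their mean reached 13.07 on KO 1, followed by KO 3 (9.44), WT 3 (8.48) and WT 1 (7.84), against 6.98 to 7.74 on the poor arrays, with a median difference of 2.12. All 9 genes had a positive difference among the KO arrays (median 3.89), among the WT arrays (0.63) and within batches 1, 2 and 3 (3.42, 1.48 and 0.85). Alb, serum albumin, read 14.13, 11.29, 10.19 and 8.19 on KO 1, KO 3, WT 3 and WT 1, and 9.04 on KO 4 of the poor side, so it overlapped. In this list 2 genes, Apoc3 and Ahsg, were higher on all rich arrays, beside 0.748% of all genes. Cyp2f2, listed among X-zone genes, read 12.04 on KO 1 and 8.13 to 9.24 on the other rich arrays, against 6.51 to 7.40, in the order KO 1, KO 3, WT 1, WT 3. Without KO 1 the median difference of the fat cell identity genes was 1.26 and that of the brown fat genes 0.87. The liver mean of KO 3, WT 3 and WT 1 still lay above every poor array. The part of liver RNA in these and the other values was not tested.

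**Figure D4:**
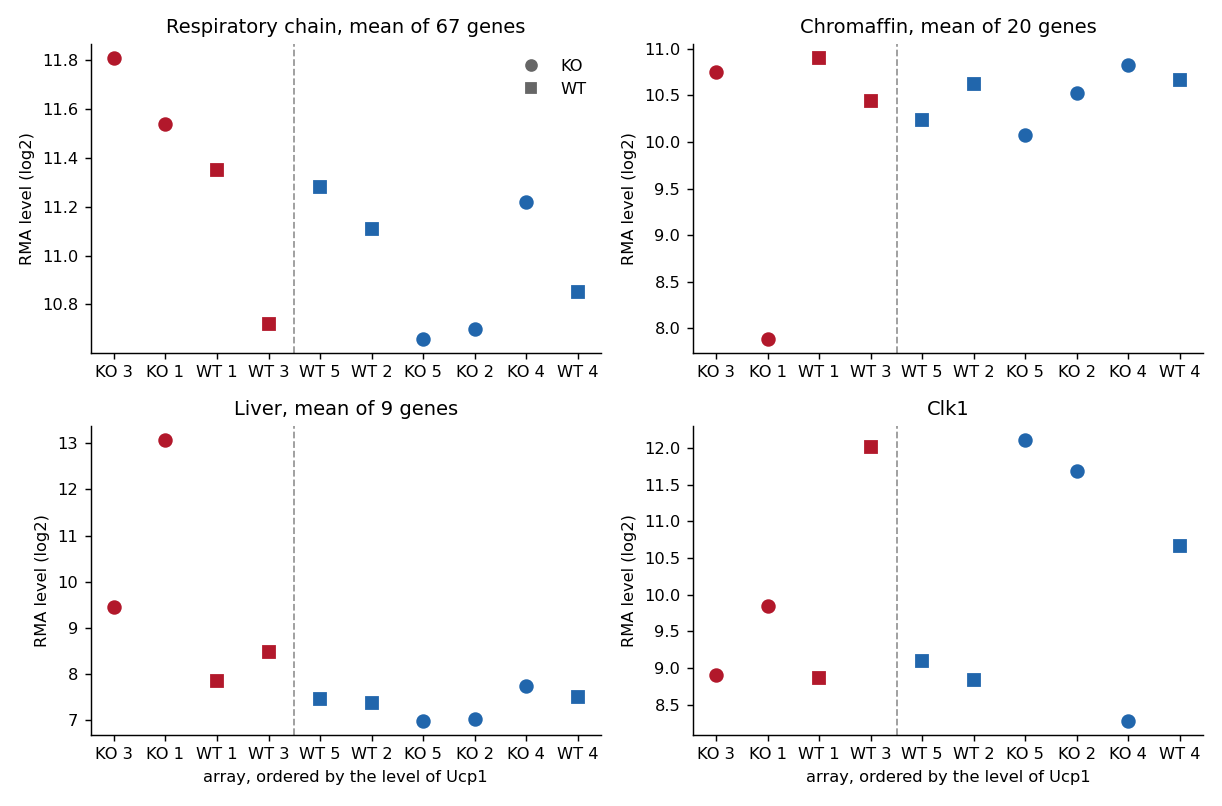
Mean RMA level (log2, vertical axes) of respiratory chain, chromaffin and liver genes, and the level of Clk1, on each array ordered by Ucp1. Circles are KO and squares WT arrays, red marks the rich and blue the poor side. The respiratory chain is low on WT 3, KO 5 and KO 2, the arrays where Clk1 is above 11, and KO 1 stands alone for the chromaffin (7.89) and liver (13.07) means.

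Lists of other cell types had the following median differences. Endothelial genes had a median of -0.09 (12 genes), stroma and capsule genes 0.10 (11 genes), lymphocyte genes 0.17 (9 genes), exocrine pancreas genes 0.01 (7 genes), kidney genes 0.03 (8 genes) and skeletal muscle genes 0.08 (10 genes). Each of these medians was above 0 among KO and below 0 among WT arrays. For lymphocyte genes they were 0.53 (9 of 9 above 0) and -0.06 (3 of 9), and for skeletal muscle genes 0.22 (10 of 10) and -0.08 (1 of 10). Endothelial genes had medians of 0.38, -0.19 and -0.20 within batches 1, 2 and 3. Macrophage genes had a median of 0.09 (14 genes), but the direction turned with genotype and batch, with 0.61 among KO arrays (13 of 14 above 0) and -0.36 among WT arrays (0 of 14), and 1.02, -0.04 and -0.37 within batches 1, 2 and 3. Myl1, a myosin light chain, was the 1 muscle gene higher on all rich arrays, beside 0.748% of all genes. It read 8.72, 8.78, 6.32 and 6.46 against 5.04 to 5.98, a difference of 1.99, while Acta1 of the same list overlapped (0.38). Alas2, the first enzyme of haem synthesis in red cells, read 10.68, 10.49, 8.95 and 8.39 against 7.92 to 9.17, an overlap. Alas2 and Slc4a1, the 2 measured red blood cell genes, had a median difference of 0.64, which was 1.40 among KO and -0.12 among WT arrays, and 1.11, 1.01 and -0.18 within batches 1, 2 and 3.

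Genotype was not used by the rule, so KO and WT could be compared. The KO arrays averaged 9.22 ± 2.92 for Ucp1 and the WT arrays 9.14 ± 2.16 (SD, n = 5 each), a difference of 0.0776 (two-sided exact permutation test, p = 0.952, where the smallest possible p is 0.00794). Cidea, Elovl3 and Cox7a1 differed by 0.527, 0.561 and 0.439, each with an exact permutation p between 0.667 and 0.746 and 0.952 after adjustment over the 4 genes. For all 4 genes the KO arrays were higher on the rich side (by 1.26 for Ucp1 and 2.45 for Elovl3) and lower on the poor side (by -0.71 and -0.701). The difference in Ucp1 was smaller than the spread within a genotype and had no stable sign. It was -1.44 with batch as a fixed block, -2.02 within batch 1 and -0.93 within batch 3, and it lay between -0.78 and 0.73 when arrays were left out singly, with a negative sign without KO 1 (-0.66), KO 3 (-0.78), WT 2 (-0.19) or WT 4 (-0.66).

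For the 4 lists given next, the differences between the sides were larger among KO than among WT arrays. Among KO arrays the median difference was 2.60 for fat cell identity genes, 1.97 for brown fat genes, 1.09 for fatty acid oxidation genes and 0.84 for respiratory chain genes. Among WT arrays the same medians were 0.71, 0.40, 0.07 and -0.04. All 24 fat cell identity genes were above 0 among KO arrays and 22 among WT arrays, whereas 65 of 67 respiratory chain genes were above 0 among KO and 23 among WT arrays. Each genotype gave 2 rich and 3 poor arrays, and whether the genotypes differ in this was not tested.

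**Figure D5:**
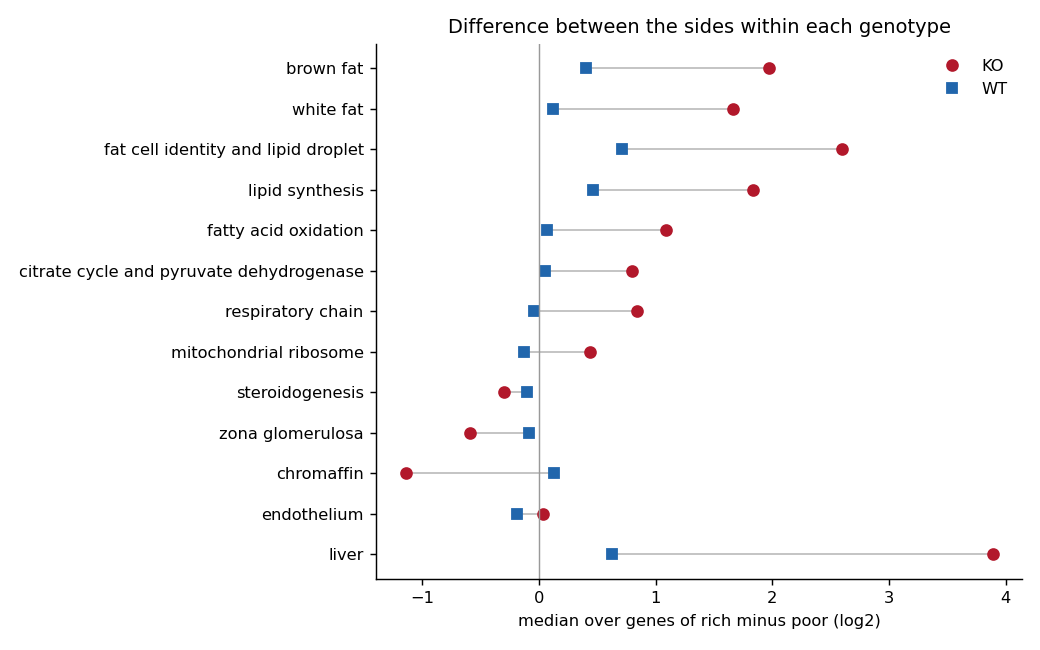
Median over the genes of each list of the difference rich minus poor (log2, horizontal axis), computed among the 5 KO arrays (circles) and the 5 WT arrays (squares). Each point rests on 2 rich and 3 poor arrays. The brown fat, white fat, fat cell identity and lipid synthesis medians lie above 0 in both genotypes, and the respiratory chain median is 0.84 in KO and -0.04 in WT.

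With the side as a block, 0 of 20777 probes differed between KO and WT (limma, Benjamini-Hochberg adjusted p under 0.05; 888 probes, 4.27%, at an unadjusted p under 0.05, of which 165 were higher and 723 lower in KO). The cyclin Ccnd1 had the smallest p, with 10.53 in KO and 11.27 in WT, a difference of -0.74 (limma standard error 0.10, adjusted p = 0.893). Jun followed at -0.71, then Gtf3c4 (-0.50), the kinase Wee1 (-0.57) and the amino acid transporter Slc7a1 (-0.69), and the smallest p among higher genes belonged to Ifi214 (0.44) and Hoxc8 (0.54). The side term left the KO against WT differences unchanged because it is balanced over genotype, and the median residual SD of all probes was 0.257 without and 0.256 with it. Batch is not balanced over genotype. With batch added as a fixed block, 0 probes passed the adjusted threshold (limma). At an unadjusted p under 0.05 there were then 2042 probes (9.83%), 398 higher and 1644 lower in KO.

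Among the 6 poor arrays alone, 0 probes passed (limma, adjusted p under 0.05; 887, 4.27%, at an unadjusted p under 0.05). Gprc5b had the smallest p at -1.17, followed by Thbs1 (-0.77) and the corticosteroid carrier Serpina6 (-1.39), and the highest-ranked higher gene was Gdpd3 (0.88). The heat shock gene Hspa1a differed by -1.53. Fat cell identity genes had a median KO minus WT difference of -0.36 among the poor arrays and of 0.44 over all arrays. The count of 0 depended on KO 4. Without it, 1970 probes (9.48%) passed, 1354 higher and 616 lower in KO, and the KO arrays left were KO 2 and KO 5, both rich in Clk1. Without KO 2 and KO 5 instead, KO 4 was the only KO array left, so that fit gives no count to set beside this one.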

How the data were processed

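Whole adrenal RNA was measured on 10 arrays, 1 per mouse. The authors deposited 1 log2 value per probe and array. Their processing notes name RMA, and the software behind it, its filters and any treatment of batches are not stated in the sources. The log2 values span a wide range (2.75 to 14.64), with no detection call, so no probe was classed as absent, and background correction could not be repeated. The number of arrays limits the precision.

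Of 35557 rows, 25689 held values and 9868 held none, and 25 control rows were left out. The platform annotation pairs 20777 probes with 1 symbol, 232 with more than 1 and 4655 with no symbol. Where a gene had more than 1 single-gene probe, that of the highest mean was taken (19661 genes, 19584 of them matched to RefSeq, GRCm38.p6). The annotation names no build for the arrays, and coordinates are given only for RefSeq promoter windows.

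The split on Ucp1 above 10, the 35 gene lists and the tests were chosen with earlier results of these data known. Genes named are the 4 markers, the 20 largest higher and 10 largest lower differences among genes whose sides do not overlap, up to 4 members of each list with the largest absolute difference, the isoform pairs, and the 5 smallest p in each direction of the genotype fits. Other list members, Crem, Clk1 and Alb were named after their values were seen. Genotypes were compared by two-sided limma fits (version 3.58.1 under R 4.3.3, lmFit then eBayes, Benjamini-Hochberg over 20777 probes, threshold 0.05) and, for the 4 markers, by an exact permutation test over 252 choices of 5 arrays. The labels number the animals, which were taken as separate mice. Both fits were tested on simulated data: of probes changed by 1 on the log2 scale, 56.7% were recovered with the side as a block and 5.35% among the poor arrays, and of probes changed by 2, 83.6% and 56.4%. The simulated noise was independent for each probe and array. It held no batch, Clk1 or KO 1 pattern, so these shares need not hold for the real arrays. Alternatives were other limits, median shift, repeated quantile normalisation, probe averaging, brighter genes, batch as a block, within-batch values and leaving arrays out. Other software was Python 3.11.15 and matplotlib 3.10.9.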

Additional observations from a re-analysis of the deposited data

Results flagged for a closer look

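The chromaffin mean on KO 1 (7.89) stood far below the others of its group, both among the rich arrays (next lowest 10.44) and among the KO arrays (next lowest 10.07). These were the 2 flags in 156 combinations of 39 genes or list means with the rich, poor, KO and WT arrays, and chance alone flags about 1 in 20 groups.

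The cholesterol synthesis mean differed in opposite directions by genotype. It was 0.87 higher on the rich than on the poor KO arrays and -0.31 lower on the rich than on the poor WT arrays, with no overlap between the sides in either genotype. The difference was not tested.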

How the results depend on the processing

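The median differences of the brown fat, fat cell identity, fatty acid oxidation and steroidogenesis genes kept their sign under every alternative run, and 0 probes passed in all 19 alternatives of the genotype fit with the side as a block. No paired analysis was possible because the labels give the mice no replicate numbers shared between genotypes, and batch as a fixed block gives no count of separated genes.

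Counts of genes higher and lower on all rich arrays were 662 and 380 with the limit at 11, 1706 and 1432 at 12, and at 9 the lower count was 26. They were 76 and 40 among the brighter genes, 9299 and 6041 within batch 1, 8470 and 11190 within batch 2 (1 array a side, so every gene is one or the other), 3899 and 5632 within batch 3, 886 and 831 without WT 3, KO 2 and KO 5, and 255 and 321 without KO 1 and KO 3. Chosen after seeing the data, they were 1195 and 708 without KO 1 and WT 3, and 593 and 463 for genes separated within each of batches 1, 2 and 3. Fewer arrays or genes shift these counts by construction. Leaving out 1 array gave 167 to 731 higher and 89 to 427 lower genes.

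At a limit of 12 the medians were 1.77 (brown fat), 2.28 (fat cell identity), 0.90 (fatty acid oxidation) and -0.31 (steroidogenesis). Within batch 1 they were 0.83 (respiratory chain), 1.08 (fatty acid oxidation) and -1.42 (chromaffin); within batch 2, 1.73 (brown fat), 2.96 (fat cell identity), 0.98 (fatty acid oxidation) and -0.36 (steroidogenesis); within batch 3, 0.38 (brown fat), 0.83 (fat cell identity), -0.14 (respiratory chain) and 0.06 (fatty acid oxidation). Without KO 1 and KO 3 they were 0.37 (brown fat), 0.81 (fat cell identity), 0.15 (fatty acid oxidation) and 0.17 (chromaffin), and the chromaffin median was 0.18 without KO 1. Leaving out 1 array gave 0.87 to 1.43 for brown fat, 1.26 to 1.88 for fat cell identity, 0.24 to 0.59 for the respiratory chain, 0.39 to 0.72 for fatty acid oxidation, -0.26 to -0.14 for steroidogenesis and -0.75 to 0.18 for chromaffin genes.

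Among the poor arrays, leaving out 1 array gave 0 to 1970 probes (1970 without KO 4, 1 without WT 4). The Ucp1 difference between genotypes reversed to -1.44 with batch as a block, -2.02 within batch 1 (exact permutation p = 1) and -0.93 within batch 3 (exact permutation p = 0.75), and lay between -0.78 and 0.73 with 1 array left out (-0.66 without KO 1, -0.78 without KO 3, -0.19 without WT 2, -0.66 without WT 4). The causes were not tested.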

Other observations

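Probes outside the single-gene set gave similar shares. Of 232 probes paired with several genes, 2 (0.862%) were higher and 1 (0.431%) lower on all rich arrays, and of 4655 probes paired with no gene, 22 (0.473%) were higher and 11 (0.236%) lower. The 2 higher probes of the first kind were that of Cpt1b and Gm44502 (2.93) and that of Flad1 and Lenep (0.45).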
